A study of Mus musculus with 6 samples.

Results

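Probes for 4 enzymes that act in sequence in the lower part of glycolysis, aldolase A (Aldoa), glyceraldehyde-3-phosphate dehydrogenase (Gapdh), phosphoglycerate kinase 1 (Pgk1) and enolase 2 (Eno2), were examined in the soleus, a calf muscle built mainly of slow fibres. They were chosen by the gene symbol that the platform's annotation gives, and each gene had 1 probe, so 4 of the 223 probes of the array were taken, for 4 of its 203 named genes. The muscles came from tenascin-C (Tnc) deficient mice on a 129/SV background that had been reloaded for 1 day, and each of the 6 arrays stands for 1 animal. All 6 animals share the deficiency and the reloading, so the data describe these enzymes within 1 condition and hold no comparison between conditions. The age and sex of the animals, and how the gene was disrupted, are not stated in the labels. RNA was taken from sections of the muscle belly, which hold every cell type of the tissue, so fewer cells of a type and less RNA per cell cannot be told apart.

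Glycolysis splits glucose into pyruvate and yields ATP without oxygen. Aldolase cleaves fructose-1,6-bisphosphate into triose phosphates, Gapdh oxidises glyceraldehyde-3-phosphate while storing phosphate and reducing NAD+, phosphoglycerate kinase makes the first ATP that is gained, and enolase forms phosphoenolpyruvate. Aldolase A is the aldolase of muscle, while enolase 2 is best known as the enolase of neurons, the main enolase of adult muscle being the product of another gene, Eno3. Slow fibres rely more on oxidative metabolism than fast fibres do, but they carry glycolytic enzymes as well. Gapdh is also widely used as a reference gene.

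The deposited intensities are relative values on a linear scale, and each is read here against the lowest intensity of its own array, taken over 221 probes without the very bright spots 1M (unnamed) and 1O (28S ribosomal RNA). That lowest intensity, called the floor below, was 0.003 on arrays 1 and 2, and 0.0018, 0.0009, 0.0012 and 0.0006 on arrays 3 to 6. Spots 1M and 1O together gave 41.3 and 40.5 on arrays 1 and 2, against 0.876 to 3.21 on the others, so the first pair of arrays stands apart and values with and without it are given. The split into these sets was made from the data and not from the labels. Markers of muscle fibres were measured: all 3 slow-fibre probes (Myh7, Mb and Car3) and all 3 fast-fibre probes (Myh1, Myh2 and Myh4) were at or above 2 times the floor throughout arrays 3 to 6. Fabp4, the only marker of the adipocyte list with a probe, also lay above 2 times the floor there, at 2.11, 4.33, 7.42 and 8.33 times. Of the endothelial markers 5 had a probe and 0 did so on all 4 of these arrays, beside 30 of all 221 probes (13.6%), although Pecam1 lay at 4.58 and 4.33 times and Cdh5 at 3.75 and 5.33 times on arrays 5 and 6; the nerve, leukocyte and erythrocyte marker lists had 0 probes.

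Aldoa and Gapdh were among the brightest probes in the muscle of every animal, while Pgk1 and Eno2 stayed within 10 times the lowest intensity. Of the 4 enzymes, Aldoa, Gapdh and Eno2 were at or above 2 times the floor on all 6 arrays, as did 5 of all 221 probes (2.26%). On arrays 3 to 6 all 4 enzymes did, against 30 of 221 probes (13.6%). With 3 times the lowest as the limit, only Aldoa passed on all 6 arrays, and it was the only probe of the 221 to do so. Its margin over nearby spots was small on arrays 1 and 2, if probe identifiers give row and column, which is an assumption. The brighter of its 2 adjacent spots then lay at 4.4 and 4.7 times the floor there, against 4.83 and 6.40 times for Aldoa. The part of these surroundings in the Aldoa signal was not tested.

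Aldoa, which cleaves the hexose bisphosphate, gave intensities of 0.0145, 0.0192, 0.0989, 0.0984, 0.0817 and 0.1434 on arrays 1 to 6. Arrays 1 and 2 were low and arrays 3 to 6 high, with no overlap between the sets. In multiples of the lowest intensity these were 4.83, 6.40, 54.9, 109, 68.1 and 239. It ranked between 1 and 3 among 221 probes on every array and was the brightest probe on arrays 3 and 6. Among arrays 3 to 6 the highest intensity was 1.76 times the lowest one. RefSeq lists 3 start sites for Aldoa. The 250 bases before the second of them (GRCm38.p6, chr7:126799255-126799504, minus strand) are shown because they hold 1 copy of ACGTG. It is 1 form of the core that hypoxia-inducible factors bind, in capitals here and read from the opposite strand.

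Aldoa: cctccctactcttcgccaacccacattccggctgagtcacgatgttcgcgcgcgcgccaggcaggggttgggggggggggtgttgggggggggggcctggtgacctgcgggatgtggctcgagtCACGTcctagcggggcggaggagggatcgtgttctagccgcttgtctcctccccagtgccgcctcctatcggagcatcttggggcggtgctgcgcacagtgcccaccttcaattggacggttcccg

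The motif ACGTG was searched on both strands in the 250 bases before each start site, and 5444 of 32851 start sites (16.6%) held it. The other form of the core, GCGTG, was not searched, so a sequence without ACGTG may still hold the core. The third Aldoa start site shares the same copy, and the first, which lies farthest upstream, held none. No copy in any of the start sites of the 4 enzymes is part of the E-box CACGTG. The array does not tell which start site the measured Aldoa transcripts used.

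Gapdh, the dehydrogenase, gave intensities of 0.0089, 0.0139, 0.0433, 0.1175, 0.1033 and 0.1247 on arrays 1 to 6. Array 3 thus stood between the pair of low arrays and the group of arrays 4 to 6. These intensities were 2.97, 4.63, 24.1, 131, 86.1 and 208 times the lowest of their array. Gapdh was the brightest of 221 probes on arrays 4 and 5, second on array 6, and ranked 4 on array 3, 8 on array 1 and 6 on array 2. Its highest intensity was 14.0 times its lowest over all arrays and 2.88 times over arrays 3 to 6. That wider range on arrays 3 to 6 than for Aldoa came from array 3, where Gapdh was less bright than on arrays 4 to 6 while Aldoa was not. The 250 bases before its 1 listed start site (GRCm38.p6, chr6:125165774-125166023, minus strand) held no ACGTG, but they do hold GCGTG on both strands. They are shown beside those of Aldoa because both probes were bright on the same arrays.

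Gapdh: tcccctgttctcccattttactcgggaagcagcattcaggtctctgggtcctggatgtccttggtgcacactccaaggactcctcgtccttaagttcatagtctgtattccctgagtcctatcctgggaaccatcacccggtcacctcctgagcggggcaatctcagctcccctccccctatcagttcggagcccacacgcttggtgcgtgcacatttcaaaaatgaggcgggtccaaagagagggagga

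Pgk1, which makes ATP from bisphosphoglycerate, gave intensities of 0.0034, 0.0044, 0.0054, 0.004, 0.0043 and 0.0044 on arrays 1 to 6. Its deposited intensity was almost level over the animals, with a highest value 1.59 times the lowest. The floor under it was not level, however, since the lowest intensity of an array varied 5.0 times. Read against that floor, Pgk1 lay at 1.13 and 1.47 times on arrays 1 and 2, and on arrays 3 to 6 at 3.0, 4.44, 3.58 and 7.33 times. On array 1 it lay below the median probe, at rank 143 of 221, and on arrays 3 to 6 it ranked between 26 and 39. After subtraction of the lowest intensity the net value of Pgk1 was 0.0004 on array 1, where 1 unit in the last deposited decimal is 25.0% of it, and 0.0014 on array 2. On arrays 3 to 6 the net values were 0.0036, 0.0031, 0.0031 and 0.0038, the highest being 1.23 times the lowest. The small spread of Pgk1 on arrays 3 to 6 therefore holds for deposited and net values, but not for multiples of the floor, which ran from 3.0 to 7.33. Over all 6 arrays it holds only for the deposited values: the net values differed by up to 9.50 times. The 250 bases before the start of Pgk1 (GRCm38.p6, chrX:106186850-106187099, plus strand) are shown because they held 2 copies of ACGTG, more than any other start site of these enzymes. The copies begin 150 and 131 bases before the start and are in capitals, the second read from the opposite strand.

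Pgk1: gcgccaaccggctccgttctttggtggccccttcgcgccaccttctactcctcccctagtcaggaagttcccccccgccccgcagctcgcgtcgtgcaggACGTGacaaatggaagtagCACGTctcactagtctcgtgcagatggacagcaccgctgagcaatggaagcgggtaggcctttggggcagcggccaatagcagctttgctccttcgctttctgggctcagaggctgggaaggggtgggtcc

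Eno2, the enolase best known from neurons, gave intensities of 0.0066, 0.007, 0.008, 0.0044, 0.004 and 0.0034 on arrays 1 to 6. Arrays 1 to 3 were high and arrays 4 to 6 low, the opposite of the order seen for Gapdh. In multiples of the lowest intensity Eno2 lay at 2.20, 2.33, 4.44, 4.89, 3.33 and 5.67, so on that scale arrays 1 and 2 were the lowest. The net values were 0.0036, 0.004, 0.0062, 0.0035, 0.0028 and 0.0028, and array 3 was again the highest. The direction of the difference between arrays 1 and 2 and arrays 4 to 6 thus depends on whether the floor is divided out or not. If the number and letter of a probe identifier are its row and column, which is an assumption, the Eno2 spot touches that of Aldoa at a corner. It lies 5.10 steps from both 1M and 1O. On array 6, where Aldoa was brightest, Eno2 had its lowest deposited intensity but its highest multiple of the floor. The median of the 4 spots next to Eno2 was 3.77 and 3.73 times the lowest intensity on arrays 1 and 2 and between 1.17 and 2.11 times on arrays 3 to 6. The part of these surroundings, Aldoa included, in the Eno2 signal was not tested. Under the same assumption the brightest spot next to Gapdh lay at 37.9, 50.0, 18.3 and 53.2 times the floor on arrays 3 to 6. For Pgk1 it lay at 2.33, 4.56, 4.25 and 6.17 times, although the median of its 8 adjacent spots was at most 1.5 times. The part of these spots in the Gapdh and Pgk1 signals was not tested either. The 250 bases before the Eno2 start site held no ACGTG. With 0 probes for nerve markers, the tissue source of the Eno2 signal was not analysed here.

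**Figure D1:**
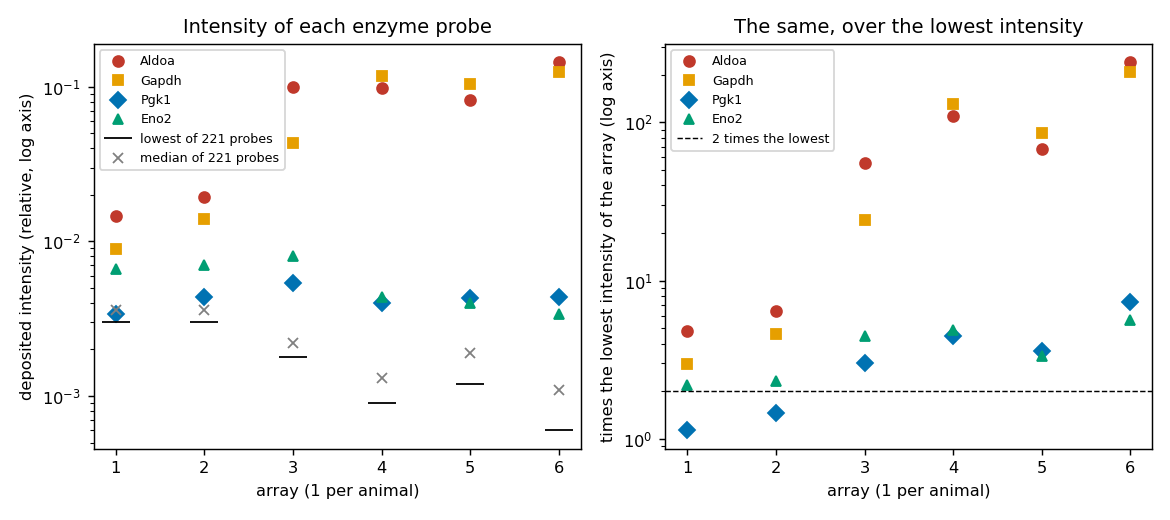
Intensity of the 4 enzyme probes on each of the 6 arrays as deposited (left, with the lowest and the median of 221 probes) and over the lowest intensity of the array (right, dashed line at 2 times), both on log axes. Aldoa and Gapdh sit far above the floor on arrays 3 to 6, Pgk1 stays between 0.0034 and 0.0054 while the floor moves from 0.003 to 0.0006, and Eno2 lies between 2.20 and 5.67 times the floor.

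The enzymes were next compared within each array, which removes any scaling shared by the probes of that array. The label is built into the copied cDNA, so a signal also depends on the length and base composition of the product and on its primer. The ratios below are ratios of signals and do not rank transcript numbers. All 6 pairs were tested with a two-sided exact sign-flip permutation test, for which 0.03125 is the smallest p that 6 arrays allow, and adjusted by Benjamini-Hochberg over the 6 pairs.

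Aldoa and Gapdh, which follow each other in the pathway with only the triose phosphate isomerase step between them, did not differ beyond the spread between arrays. The ratio of Aldoa to Gapdh was 1.63, 1.38, 2.28, 0.837, 0.791 and 1.15 on arrays 1 to 6, that is, above 1 on 4 arrays and below it on arrays 4 and 5. The mean log2 ratio was 0.33 ± 0.58 (SD, n = 6; exact permutation p = 0.25, adjusted 0.25). Without array 3 it was 0.16, and on arrays 3 to 6 it was 0.20 ± 0.70 (SD, n = 4). Subtraction of the floor changed the ratio of this bright pair by little, to between 0.788 and 2.34.

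Both bright enzymes stood above both dim ones on all 6 arrays. Aldoa gave 4.26 and 4.36 times the signal of Pgk1 on arrays 1 and 2 and 18.3, 24.6, 19.0 and 32.6 times on arrays 3 to 6. On arrays 1 and 2 the Pgk1 signal was itself mostly floor, so the values there, which enter the mean, understate the ratio of signals above it. The mean log2 ratio was 3.72 ± 1.28 (SD, n = 6; exact permutation p = 0.03125, adjusted 0.0469). Net values told the arrays apart less: Aldoa over Pgk1 was then 28.8 and 11.6 on arrays 1 and 2 and between 26.0 and 37.6 on arrays 3 to 6, with a mean log2 ratio of 4.67 ± 0.59. The lower deposited ratio on arrays 1 and 2 was thus not kept on array 1 once the floor was subtracted, although there the net value of Pgk1 rests on 4 units of the last decimal.

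Gapdh over Pgk1 had a mean log2 ratio of 3.39 ± 1.60 (SD, n = 6; exact permutation p = 0.03125, adjusted 0.0469). Its ratios were 2.62, 3.16 and 8.02 on arrays 1 to 3, whereas arrays 4 to 6 gave 29.4, 24.0 and 28.3, so array 3 lay outside the range of those 3. With net values array 3, at 11.5, still lay below arrays 4 to 6, at 37.6, 32.9 and 32.7. Gapdh and Pgk1 catalyse consecutive steps, and their ratio varied more over arrays 3 to 6 (SD 0.89 on the log2 scale) than Aldoa over Pgk1 did (SD 0.39); that difference in spread was not tested.

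Over all 6 arrays the ratios of the bright enzymes to Eno2, the last enzyme of the series, spread more than their ratios to Pgk1. Aldoa gave 2.20 and 2.74 times the Eno2 signal on arrays 1 and 2, then 12.4, 22.4, 20.4 and 42.2 times on arrays 3 to 6, a mean log2 ratio of 3.41 ± 1.73 (SD, n = 6; exact permutation p = 0.03125, adjusted 0.0469). Gapdh gave 1.35, 1.99 and 5.41 times the Eno2 signal on arrays 1 to 3, while on arrays 4 to 6 it gave 26.7, 25.8 and 36.7 times. The mean log2 ratio of that pair was 3.08 ± 2.08 (SD, n = 6; exact permutation p = 0.03125, adjusted 0.0469). Both ratios stayed above 1 on every array with net values, where Aldoa over Eno2 ran from 3.19 to 51.0 and Gapdh over Eno2 from 1.64 to 44.3.

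The dim enzymes, Pgk1 and Eno2, did not differ from each other beyond the spread between arrays. Pgk1 over Eno2 was 0.515, 0.629, 0.675, 0.909, 1.07 and 1.29 on arrays 1 to 6, below 1 on 4 arrays and above it on arrays 5 and 6. The mean log2 ratio was −0.31 ± 0.51 (SD, n = 6; exact permutation p = 0.1875, adjusted 0.225). On arrays 3 to 6 it was −0.06 ± 0.40 (SD, n = 4). The signals therefore formed a bright pair and a dim pair on arrays 3 to 6, and no order was resolved within either pair over the 6 arrays. On array 1 the pairs were not clearly set apart. Gapdh gave 1.35 times the signal of Eno2 there, less than the 1.63 times of Aldoa over Gapdh. On array 2 these ratios were 1.99 and 1.38.

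**Figure D2:**
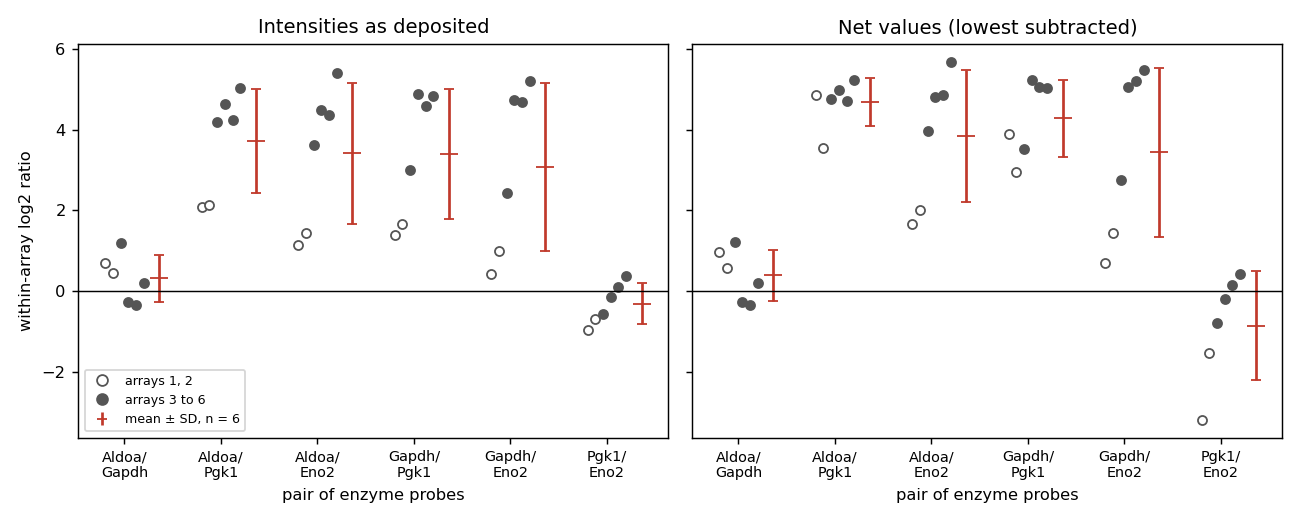
Within-array log2 ratios for the 6 pairs of enzyme probes, from intensities as deposited (left) and after subtraction of the array's lowest intensity (right); each circle is 1 array, open for arrays 1 and 2, and bars give the mean ± SD (n = 6). The 4 ratios of a bright to a dim enzyme lie above 0 on every array, while Aldoa/Gapdh and Pgk1/Eno2 fall on both sides of 0.

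The bright pair took a large part of the signal that the array recorded above its floor. Aldoa and Gapdh together made up 5.24% and 8.14% of the summed net signal of 221 probes on arrays 1 and 2, and 23.1%, 26.8%, 24.9% and 30.8% on arrays 3 to 6. The share of Aldoa alone was 16.2%, 12.2%, 11.0% and 16.5% on arrays 3 to 6, and that of Gapdh 6.91%, 14.6%, 13.9% and 14.3%. On array 3 the smaller share of Gapdh went with a high share of Aldoa, so the sum of the pair was closer to the other arrays than the share of Gapdh was. Pgk1 and Eno2 together took between 0.762% and 1.63% on all 6 arrays. Because the deposited values sum to about 1 on each array, a larger share for a bright probe leaves less for all others.

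**Figure D3:**
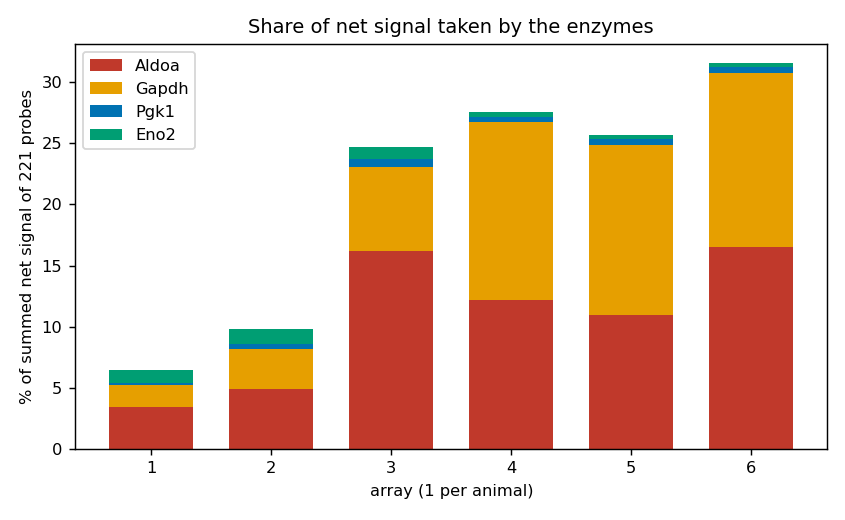
Share of the summed net signal of 221 probes (intensity minus the array's lowest) taken by each enzyme probe, stacked, for each of the 6 arrays. The 4 enzymes together take 6.44% and 9.77% on arrays 1 and 2 and between 24.7% and 31.6% on arrays 3 to 6, almost all of it from Aldoa and Gapdh.

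The spread of each enzyme over the animals was set against that of probes of like brightness. The SD of log2 intensity over 6 arrays was 1.39 for Aldoa, 1.66 for Gapdh, 0.22 for Pgk1 and 0.50 for Eno2, beside a median of 0.83 over the 197 probes that lay above the floor on every array. Gapdh had the second largest SD of these probes and Pgk1 the fourth smallest. In limma's test of each variance against a prior that follows the mean signal, 4 of 197 probes varied more than the prior (2.03%; 14 had an unadjusted p under 0.05), and none of the 4 enzymes was among them. Probes as bright as Aldoa had a prior SD of 2.01, those as bright as Gapdh 1.86, and the limma adjusted p-values were 0.893 and 0.874. For Pgk1 and Eno2 the prior SDs were 0.69 and 0.75 and the limma adjusted p-values 0.998 and 0.902. Few probes are as bright as Aldoa and Gapdh, so the prior at that signal rests in part on these 2 probes. Over the 15 settings tried the lowest adjusted p was 0.593 for Aldoa and Gapdh, 0.938 for Pgk1 and 0.226 for Eno2.

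Centring each array on its median changed the order of these spreads but left Gapdh in front. The centred SD was 2.32 for Gapdh, the largest of 197 probes, 2.03 for Aldoa, 0.75 for Pgk1 and 0.40 for Eno2, beside a median of 0.29. On arrays 3 to 6 alone the SDs of deposited log2 intensity were 0.34 for Aldoa, 0.71 for Gapdh, 0.19 for Pgk1 and 0.54 for Eno2 (n = 4). Leaving out the pair of arrays that stands apart thus took most of the spread from Aldoa and none from Eno2.

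Genes of glucose uptake and use around these enzymes ranged from the floor to 22.0 times it. Of a list of 37 genes 14 had a probe, 10 of them outside the 4 enzymes. Of these 10, 2 were at or above 2 times the floor throughout arrays 3 to 6, beside 13.6% of all probes, and 5 did so on none of them, as did 106 of all 221 probes (48%). Both shares are near those of the whole array, so nothing is read from them about these genes. Ldhb, the lactate dehydrogenase subunit typical of oxidative muscle, lay at 4.67, 10.9, 8.75 and 22.0 times on arrays 3 to 6, and Pdha1, a subunit of the pyruvate dehydrogenase complex, at 2.61, 5.33, 4.25 and 8.33 times. On arrays 1 and 2 both lay between 1.10 and 1.20 times, as Pgk1 did on array 1.

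For steps before aldolase and outside the transporters, the list had probes only for Hk1 and Pfkfb2, and both lay near the floor. They do not describe the upper part of the pathway as a whole. Hk1, a hexokinase, lay between 1.07 and 1.5 times over 6 arrays, and Pfkfb2, which makes a regulator of phosphofructokinase, between 1.06 and 1.5 times. Among glucose transporters, Slc2a1 stayed between 1.10 and 1.83 times and Slc2a3 between 1.07 and 2.50 times. Slc2a4, the insulin-responsive transporter of muscle, reached 1.94, 4.56, 4.25 and 6.17 times on arrays 3 to 6. The insulin receptor, Insr, stayed between 1.00 and 1.5 times, and Ldha, the other lactate dehydrogenase subunit, between 1.07 and 1.67 times.

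The array also carried Aldoc, the aldolase known from brain. Its intensities were 0.0036, 0.0035, 0.0029, 0.0026, 0.0052 and 0.007 on arrays 1 to 6, at 1.20, 1.17, 1.61, 2.89, 4.33 and 11.7 times the lowest. Aldoc was thus near the floor on arrays 1 to 3 and stood out on array 6. Aldoa gave between 4.03 and 37.8 times the signal of Aldoc, with 34.1 and 37.8 times on arrays 3 and 4 and 15.7 and 20.5 times on arrays 5 and 6. On arrays 1 to 3, where Aldoc lay close to the floor, the ratio is set in part by that floor, so no change in the ratio of the isoforms is read from these values. The labels do not state whether the probes distinguish related aldolases.

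**Figure D4:**
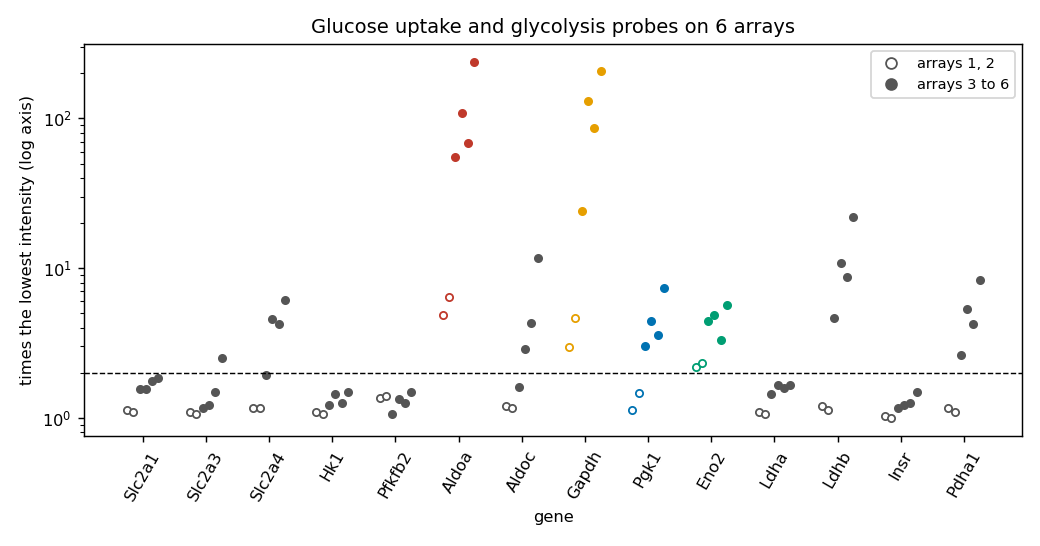
Probes of the glucose uptake and glycolysis list over the lowest intensity of their array (log axis, dashed line at 2 times), 6 arrays per gene from left to right, open circles for arrays 1 and 2. Aldoa and Gapdh lie highest, up to 239 and 208 times, followed by Ldhb at up to 22.0 times, while Hk1, Pfkfb2, Ldha, Slc2a1 and Insr stay under the dashed line on all arrays.

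For each enzyme the named probes of other genes with the closest profile were sought among 184 candidates, by the root mean square difference of log2 intensities after each probe's own mean was removed. A small value means that signals moved alike over the 6 arrays. The probes share each array's floor and scaling, so the measure is a description. For Aldoa the closest were Mb, the oxygen store myoglobin, at 0.16, Myh1, a fast myosin heavy chain, at 0.23 and Cox6a2, a muscle subunit of cytochrome c oxidase, at 0.24, beside a median of 1.89 over all candidates. The signal of Aldoa was 1.93, 2.53, 1.81, 2.17, 1.98 and 2.25 times that of Mb on arrays 1 to 6, while Aldoa itself ranged 9.89 times. Aldoa and Mb thus moved nearly in step, but over arrays 3 to 6 Aldoa ranged only 1.76 times. Much of its range was the step from arrays 1 and 2 to arrays 3 to 6, which other bright probes took as well. Cox6a2 went from 1.90 and 2.43 times the floor to between 21.3 and 70.8 times. Myh1 went from 1.83 and 1.77 times to between 12.6 and 59.5 times. The likeness is therefore not particular to Aldoa and Mb. The summed signal of the 3 slow-fibre probes moved too, from 6.42 and 6.67 times the lowest on arrays 1 and 2 to between 60.4 and 194 times on arrays 3 to 6. That of the 3 fast-fibre probes went from 4.83 and 4.73 to between 23.3 and 114 times. The part of fibre makeup in the Aldoa signal was not tested.

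Gapdh had no partner as close. Its nearest probes were Cox6a2 at 0.48, Aldoa at 0.53 and Myh1 at 0.58, beside a median of 2.15. The ratio of Gapdh to Cox6a2 ran from 1.13 on array 3 to 2.93 on array 6. Array 3 gave the lowest ratio of Gapdh to Aldoa and to Cox6a2, and the second lowest to Myh1. Each of these ratios was lower on arrays 1 to 3 than on arrays 4 to 6.

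The dim enzymes had different neighbours. The measure keeps the size of a probe's changes, which was larger for bright probes, so it tends to match dim probes with dim ones. Pgk1 was closest to Mdh2, the mitochondrial malate dehydrogenase, at 0.20, to lipoprotein lipase (Lpl) at 0.21, and to Myf6, a muscle transcription factor, at 0.25, beside a median of 0.79. The signal of Pgk1 stayed between 0.831 and 1.29 times that of Mdh2. Eno2 was closest to Fn1 (fibronectin, probe 9D) at 0.14, to the receptor gene Igf2r at 0.20 and to Igfbp4, which encodes a protein that binds insulin-like growth factors, at 0.20, beside a median of 0.51. Those 3 probes lay between 1.07 and 2.78 times the lowest intensity on all arrays, close to the floor that Eno2 exceeded by up to 5.67 times. Between Pgk1 and Eno2 the difference was 0.46, and between Gapdh and Eno2, the farthest apart of the enzymes, it was 1.90.

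**Figure D5:**
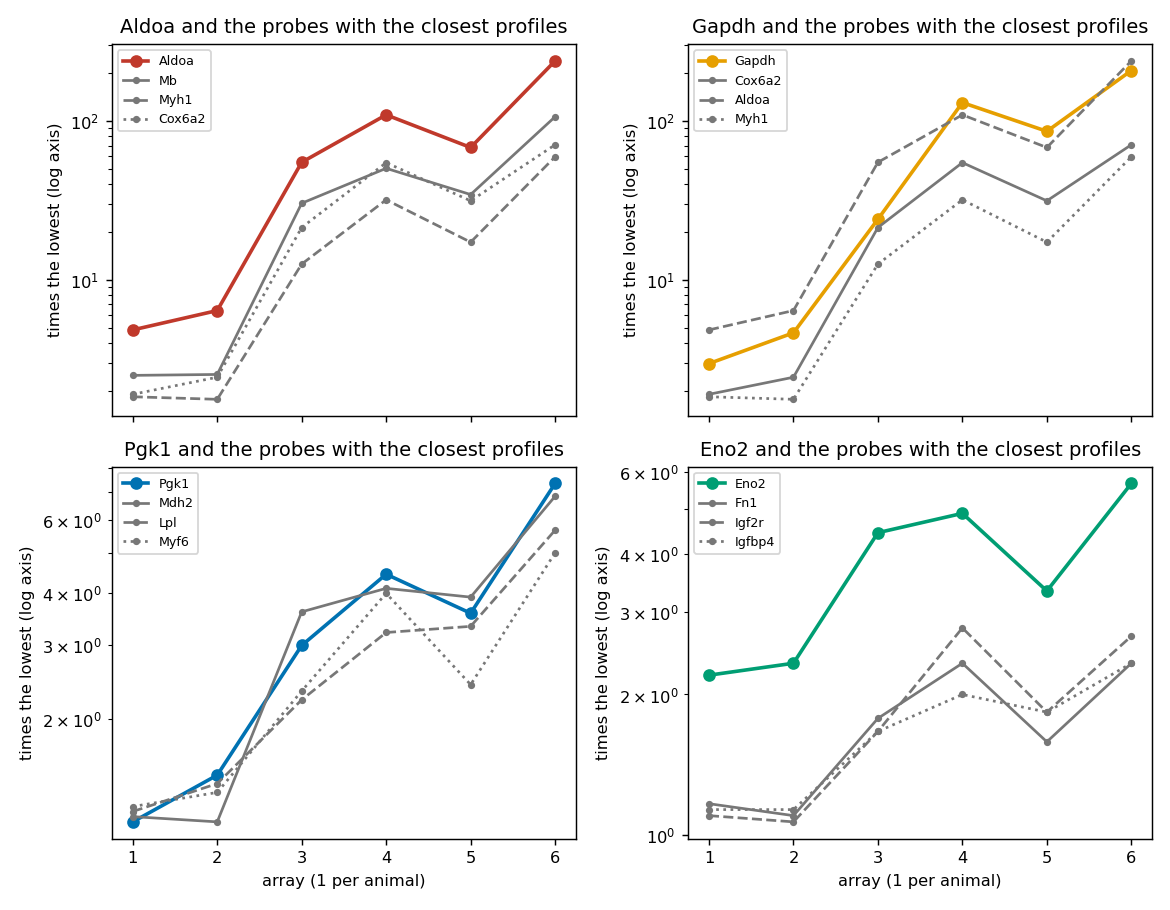
Each enzyme (coloured) and the 3 named probes with the closest profiles (grey) over the lowest intensity of each array, on log axes; lines join the values of 1 probe and imply no order of the arrays. Aldoa runs parallel to Mb, Myh1 and Cox6a2, Gapdh departs from its neighbours on array 3, and the neighbours of Eno2 stay at or under 2.78 times the floor.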

How the data were processed

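Signals of a radioactive label from soleus RNA of 6 animals, 1 array each, were analysed as 1 group; replicates were numbered in the order of the sample records. The authors deposited linear intensities, with 1 value for each probe on an array. Each array summed to about 1 without probes 1M and 1O, so the authors appear to have scaled by that sum; this was read from the values. Image analysis and background treatment are not given in the sources used here. Symbols came from the platform's annotation, and 204 of 205 named probes matched a RefSeq gene table (GRCm38.p6) by Entrez identifier. Promoter sequences are RefSeq's (GRCm38.p6), found for all 4 genes.

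Log2 intensities were used with no further scaling. Ratios within arrays were tested with scipy 1.17.1 (Python 3.11.15), and variances with limma 3.58.1 (R 4.3.3, squeezeVar with a robust prior following mean signal, upper-tail F test, Benjamini-Hochberg at 0.05) over the 197 probes that exceeded the floor everywhere. The variance test was tested on simulated data. Precision is limited by the number of arrays and by the 4 deposited decimals. The alternatives were other scalings, floors, filters, a pseudocount of 0.0006, another prior, arrays 3 to 6 alone and leaving out each array. Named genes were the 4 enzymes, every gene of the glycolysis list with a probe, and the 3 closest profiles per enzyme; marker probes and spots 1M and 1O were named for context. The members and lists were chosen with earlier results of these data known.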

Additional observations from a re-analysis of the deposited data

How the results depend on the processing

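The direction of all 6 enzyme ratios was kept in the 12 other settings of each. The 4 ratios of a bright to a dim enzyme passed in the 5 other settings with all arrays, but this adds little. Subtracting a floor, adding a pseudocount and quantile normalization keep the order of probes within an array. A ratio above 1 on every array therefore had to give the same p there. Cyclic loess left the 4 means unchanged. On arrays 3 to 6 the mean log2 ratios were 4.52 for Aldoa over Pgk1, 4.47 for Aldoa over Eno2, 4.32 for Gapdh over Pgk1 and 4.27 for Gapdh over Eno2. Without each array in turn they ran from 3.46 to 4.04, 3.01 to 3.86, 3.09 to 3.79 and 2.66 to 3.61. None of these passed, since 4 and 5 arrays allow no exact permutation p below 0.125 and 0.0625. Aldoa over Gapdh and Pgk1 over Eno2 passed in no setting, and ran from 0.16 to 0.46 and from −0.45 to −0.18 without each array. Net values widened Pgk1 over Eno2 to a mean of −0.84, and subtraction of the 5th percentile to −1.02. The count of enzymes at the limit on all arrays was 3, became 1 with 3 times the lowest as the limit, and stayed at 3 in each fit that left out an array. No enzyme passed the limma variance test in any of 15 settings, although the number of all probes that did changed from 4 to 1 with median-centring, to 0 with quantile normalization and to 0 with a prior without a trend. Without each array it ran from 0 to 6, with 0 without array 1, 2 or 6 and 1 without array 3. Signals near the floor limit what can be said of Pgk1 on arrays 1 and 2. Probes were paired within each array, but animals could not be paired across conditions because there was 1 group.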

Other observations

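The 4 enzymes are also known targets of hypoxia-inducible factors. Of a list of 22 such targets 11 had a probe, 7 of them outside the 4 enzymes. Of these 7, 0 were at or above 2 times the floor throughout arrays 3 to 6, beside 13.6% of all 221 probes, a share too small for that count to say anything about such targets. Vegfa, the vascular growth factor, lay between 1.22 and 2.0 times over the 6 arrays, and Hmox1, the haem-degrading oxygenase, between 1.11 and 1.5 times. Slc2a1, Hk1 and Ldha stayed under 2 times on every array. Aldoc, by contrast, reached 2.89, 4.33 and 11.7 times on arrays 4 to 6, and Slc2a3 reached 2.5 times on array 6.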
